A study of Arabidopsis thaliana with 6 samples.

Results

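A set of 7 genes of plastid sugar phosphate import and recycling was examined for binding by the transcription factor NLP2 in Arabidopsis thaliana seedlings. They are the transaldolase gene TRA2 (AT5G13420), the transketolase genes TKL1 (AT3G60750) and TKL2 (AT2G45290), the glucose 6-phosphate/phosphate translocator genes GPT1 (AT5G54800) and GPT2 (AT1G61800), the plastid phosphoglucose isomerase gene PGI1 (AT4G24620) and the ribulose-phosphate 3-epimerase gene RPE (AT5G61410). The 7 genes, out of 27444 nuclear protein-coding genes, form a functional group that was picked with earlier results of these data known, so their counts are a description. A peak was assigned to a gene when its summit, the position of highest signal, lay inside the gene or within 5000 bp of it. By this rule 5 of the 7 genes had a peak with nitrate, beside 5.41% of all nuclear protein-coding genes. Without nitrate 0 of the 7 had one, beside 3.76% of all.

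The measurements are from chromatin immunoprecipitation followed by sequencing (ChIP-seq) with antibodies against GFP. All plants carried the nlp2-2 mutation in the Col-0 background together with an NLP2-GFP fusion driven by the NLP2 promoter (pNLP2::NLP2-GFP). Seedlings, 14 days old by their label, were grown for 10 days in liquid medium with 3 mM KNO3 and starved of nitrogen for 3 days. In the T30 group they then received 3 mM nitrate for 30 min, and in the T0 group fresh nitrogen-free medium. There were 2 immunoprecipitated (IP) libraries and 1 input library per time, 6 in all. Whole seedlings were used, so the lists do not tell in which cells a site was bound, and no untagged line enters the comparison.

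Plant plastids without photosynthesis import glucose 6-phosphate and oxidise it in the pentose phosphate pathway, which yields NADPH. Through ferredoxin, this reductant reaches the plastid enzymes nitrite reductase and glutamate synthase. Nitrite reductase turns nitrite into ammonium, and glutamate synthase forms glutamate from glutamine. GPT proteins carry the hexose phosphate across the inner envelope. Epimerase, transketolase and transaldolase then rearrange the pentose phosphates left by the oxidation into fructose 6-phosphate and triose phosphate, and phosphoglucose isomerase returns fructose 6-phosphate to glucose 6-phosphate. In leaves, transketolase and the epimerase also serve the Calvin cycle. NLP2 belongs to the NIN-like proteins, which act in the transcriptional response to nitrate.

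The T30 list held 593 peaks and the T0 list 579, each called by the authors on 2 pooled IP libraries. The value given for each peak is the authors' fold, a ratio of enrichment, with its −log10 q, and both describe a peak only within its own list. Folds ran from 2.01 to 20.9 at T30 (median 2.75) and from 1.87 to 10.5 at T0 (median 2.06). The peaks kept had a −log10 q of at least 20.4 at T30 and at least 16.1 at T0. Because each list gives a single pooled value per peak, no replicate error can be given and no difference between the times was tested.

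With nitrate, GPT1, TRA2, TKL1, RPE and PGI1 each had a single peak, while TKL2 and GPT2 had none. These 5 of 7 genes compare with 5.41% of all nuclear protein-coding genes that had a T30 summit within the same distance (1485 of 27444). The median fold over the 5 genes was 5.77, against 2.87 over the highest peaks of those 1485 genes. Without nitrate 0 of the 7 genes had a peak, beside 3.76% of all genes (1031 of 27444). A peak at T30 and none at T0, as for these 5 genes, was found for 4.92% of all genes. All 5 peaks were found at T30 alone, meaning that no T0 peak overlapped them by 1 bp or more. That holds for 80.8% of all T30 peaks and for 93.7% of the T30 peaks within 5000 bp of a protein-coding gene, so on this count the 5 peaks are close to the background.

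**Figure D1:**
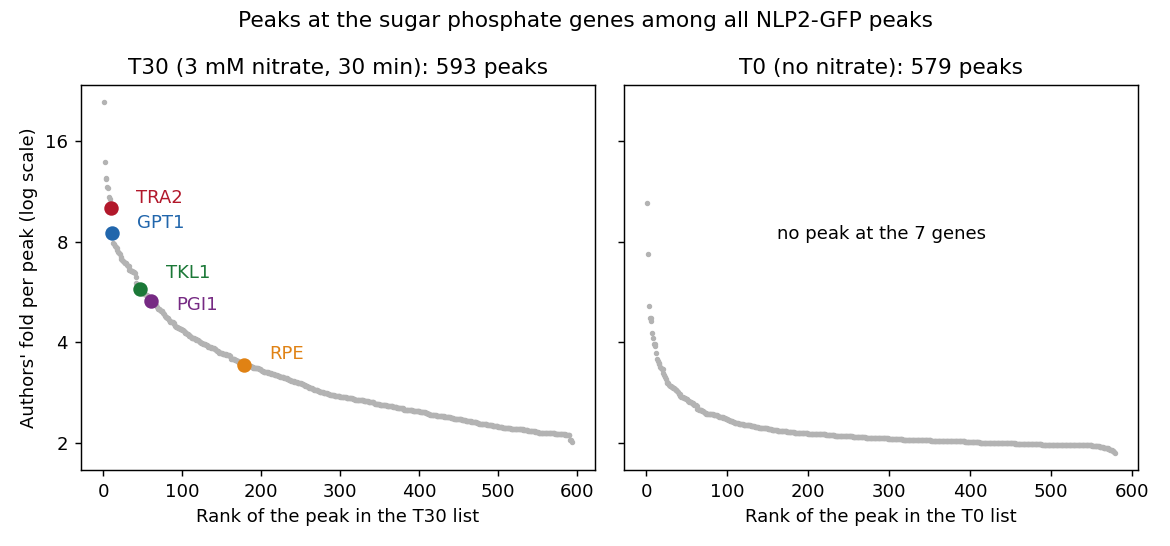
Each grey point is 1 peak, placed by its rank (x axis) and the authors' fold (y axis, log scale) in the T30 list on the left and the T0 list on the right. Coloured points are the peaks assigned to GPT1, TRA2, TKL1, RPE and PGI1, with TRA2 and GPT1 at ranks 10 and 11 of 593 at T30 and no point at T0.

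Import of glucose 6-phosphate was represented by GPT1 alone. GPT1, which is required for pollen and embryo sac development, had a T30 peak on chromosome 5 from 22263798 to 22264511 in TAIR10, with its summit at 22264192. The fold of this peak was 8.48 and its −log10 q was 488. It ranked 11th of 593 peaks by fold and 15th by −log10 q. The summit lay outside the gene within 500 bp of it, in the gap between GPT1 and TSB1, a tryptophan synthase beta subunit gene. TSB1 was also within 500 bp of the summit, and the peak reached into GPT1 but not into TSB1. The T0 list had no peak nearer than 173409 bp to this one.

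GPT2, the second translocator gene, is known for its induction by sugars and during acclimation to high light. It had no summit within 5000 bp in either list. The nearest T30 summit was more than 100 kb away and the nearest T0 summit more than 200 kb away. The lists hold only peaks past the authors' thresholds, so weaker signal at GPT2 or TKL2 is not described by them.

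Among the recycling enzymes, TRA2 had the highest fold of the 7 genes. Transaldolase transfers a unit of several carbons between sedoheptulose 7-phosphate and glyceraldehyde 3-phosphate. The TRA2 peak spanned chromosome 5 from 4304460 to 4304977, with the summit at 4304647. Its fold was 10.0 and its −log10 q was 853, which placed it 10th of 593 by fold and 8th by −log10 q. The whole peak lay in the gap between TRA2 and AT5G13430, and both genes were within 500 bp of the summit, so the peak cannot be given to TRA2 alone. Of the 10 T30 peaks with at least this fold, 9 were found at T30 alone. That held for 80.8% of all T30 peaks and for 93.7% of those within 5000 bp of a protein-coding gene.

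The transketolase genes differed in whether a peak was listed. TKL1 had a T30 peak on chromosome 3 from 22453513 to 22454293, with the summit at 22453814, a fold of 5.77 and a −log10 q of 303. It ranked 47th of 593 by fold. The summit lay inside TKL1 within 500 bp of one end, and it was also within 500 bp of TTN1, a tubulin folding cofactor gene that the peak overlapped as well. TKL2 had no peak at either time. Its nearest T30 summit was more than 50 kb away and its nearest T0 summit more than 200 kb away.

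PGI1 encodes the plastid isomerase that interconverts fructose 6-phosphate and glucose 6-phosphate and is needed for starch synthesis in leaves. Its T30 peak ran on chromosome 4 from 12712325 to 12713032, with the summit at 12712775 inside the gene and within 500 bp of one end. The fold was 5.32 and the −log10 q 226, at rank 60 of 593 by fold. PGI1 was the only protein-coding gene within 1000 bp of this summit, in contrast to the other 4 peaks, each of which had 2. For scale, 39.5% of all T30 summits had 1 such gene and 23.8% had 2. Of the 60 T30 peaks with at least the fold of PGI1, 57 were found at T30 alone. The share was 80.8% over all T30 peaks and 93.7% over those within 5000 bp of a protein-coding gene.

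RPE, whose product interconverts ribulose 5-phosphate and xylulose 5-phosphate, had the weakest assignment. A T30 peak on chromosome 5 from 24688084 to 24688458, with the summit at 24688256, had a fold of 3.42 and a −log10 q of 81.2. It ranked 178th of 593 by fold, and 69.8% of the T30 peaks had a lower fold. The summit was more than 2000 bp from RPE. It lay nearer to MYB28, a regulator of aliphatic glucosinolate synthesis, and to AT5G61412, each within 1000 bp, so that RPE was only the third nearest protein-coding gene. RPE dropped out at a distance of 1000 bp, where 4 of the 7 genes and 1.91% of all genes had a T30 peak, and at 2000 bp, with 4 of 7 and 2.75%. It also dropped out when a summit counted only for the gene nearest to it, which left 4 of 7 and 1.71% of all genes.

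**Figure D2:**
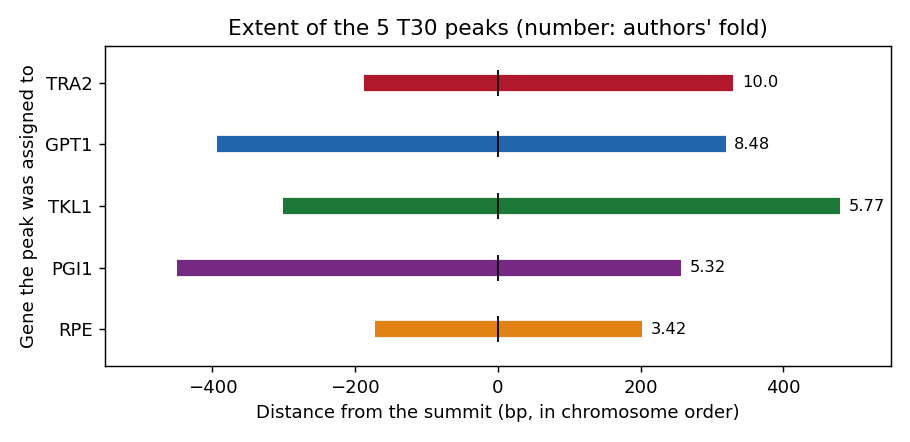
Horizontal bars show how far each of the 5 T30 peaks extends on either side of its summit (black tick at 0), in bp along the chromosome, with the authors' fold beside each bar. The RPE peak is the narrowest at 375 bp and the TKL1 peak the widest at 781 bp.

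Set side by side, the order of folds at T30 was TRA2 with 10.0, GPT1 with 8.48, TKL1 with 5.77, PGI1 with 5.32 and RPE with 3.42. The order by −log10 q was the same. Without values per library, it cannot be said which neighbours in this order differ beyond replicate spread. Relative to the median of all T30 peaks, the fold was 3.65 times as high at TRA2 and 3.08 times at GPT1, and it was 1.24 times as high at RPE. The median −log10 q of the 5 peaks was 303, against 47.2 for all T30 peaks. Their median width was 708 bp, against 435 bp for all T30 peaks. The TRA2 peak, highest in fold, was 518 bp wide, so width did not follow fold among the 5.

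**Figure D3:**
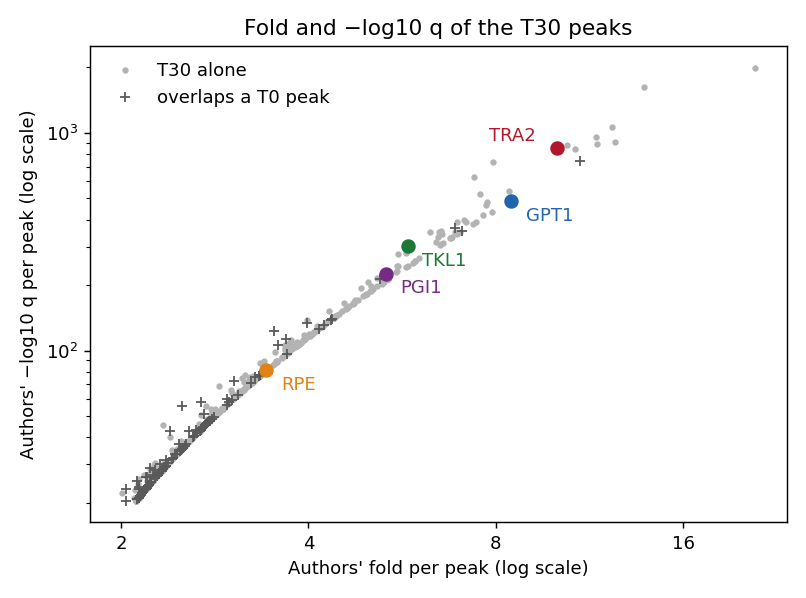
Each point is 1 T30 peak, with the authors' fold on the x axis and the authors' −log10 q on the y axis, both on log scales. Grey points were found at T30 alone and crosses overlap a T0 peak, while coloured points mark the 5 peaks at the sugar phosphate genes, which run from RPE (3.42, 81.2) to TRA2 (10.0, 853).

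The T0 list held no peak within 5000 bp of the 7 genes, as for most genes, since only 3.76% of all genes had one. In that list 322 of 579 peaks had a −log10 q below the T30 minimum of 20.4. The −log10 q describes a peak only within its own list, so the 2 lists cannot be ranked by it. The shortest gap between one of the 5 T30 peaks and a T0 peak was 22964 bp, at PGI1, followed by 85596 bp at TRA2. At TKL1, RPE and GPT1 the gap was 146222, 172427 and 173409 bp. These gaps to T0 peaks were not compared with those of all T30 peaks. None of the 5 peaks overlapped a peak of the T30 input list (22 peaks) or of the T0 input list (87 peaks). Among the 492 T30 peaks within 5000 bp of a protein-coding gene only 3 did, so the 5 peaks were like the rest in this. The label noINPUT in the names of the IP lists is not explained in the sources used here. The nearest other T30 peak was 20640 bp away at TKL1 and 264440 bp away at PGI1, with the other 3 in between. The median of these gaps was 54995 bp for the 5 peaks, close to the 52585 bp of the 492 peaks near genes.

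The other genes of the pathway were taken from 5 lists with 40 genes in all. The next list was the oxidative branch, which makes NADPH. Beside 5.41% of all genes at T30 and 3.76% at T0, 4 of its 13 genes had a T30 peak and 0 had a T0 peak. These were AT5G41670 with a fold of 7.63 and AT1G64190 with 3.93, both entered in the list as 6-phosphogluconate dehydrogenase genes (PGD3 and PGD1), and the glucose-6-phosphate dehydrogenase genes G6PD2 with 6.88 and G6PD3 with 6.27. Each of these summits lay inside its gene within 500 bp of one end, as at TKL1 and PGI1. Each had 2 protein-coding genes within 1000 bp, as at TKL1, while PGI1 had 1. G6PD1, G6PD4 and G6PD5 were among the 9 genes without a T30 peak, and so were the genes of 6-phosphogluconolactonase, PGL1 to PGL4. The median fold over the 4 genes was 6.57, beside 5.77 over the 5 import and recycling genes.

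The list of other pentose phosphate enzymes had 0 of 7 genes with a T30 peak and 1 with a T0 peak, beside 5.41% and 3.76% of all genes. AT1G12230 (entered as the transaldolase gene TRA1), AT1G63290 and AT3G01850 (entered as cytosolic epimerase genes) had none. Ribose-5-phosphate isomerase, which supplies the ribose 5-phosphate that transketolase uses, had a peak at none of its 4 genes at T30, and at T0 RPI2 had one with its summit inside the gene and a fold of 2.03. Among 5 hexose phosphate genes, the plastid phosphoglucomutase gene (AT5G51820), which links glucose 6-phosphate to starch, had a T30 peak with a fold of 4.16, its summit within 1000 bp of the gene. PGM2 had a T0 peak with a fold of 2.03, its summit within 2000 bp. AT5G51820 and PGM2 were each only the 2nd nearest protein-coding gene to their summit. HXK1, PGM3 and AT5G42740, entered as the cytosolic phosphoglucose isomerase gene, had no peak.

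Of 8 other plastid envelope transporter genes, 1 had a T30 peak and 2 had a T0 peak, beside 5.41% and 3.76% of all genes. NTT1, an ATP/ADP carrier gene, had a T30 peak with a fold of 3.39 and a T0 peak with a fold of 1.97. The NTT1 peaks did not overlap, and their summits were 4586 bp apart. PPT2, a phosphoenolpyruvate translocator gene, had a T0 peak with a fold of 2.16 and no T30 peak. Other protein-coding genes lay nearer to these summits. PPT2 was the 4th nearest to its summit, and NTT1 was the 3rd nearest at T30 and the 6th at T0. MEX1, NTT2 and pGlcT were among the genes with no peak at either time, as was the triose phosphate translocator gene (AT5G46110). With the GPT genes counted in, GPT1 and NTT1 of the 10 envelope transporter genes had a T30 peak, beside 5.41% of all genes. GPT1 had the higher fold.

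Of 7 Calvin cycle enzymes that share intermediates with the pathway, FBA3, a plastid aldolase gene, had a T30 peak with a fold of 6.88 and a T0 peak with a fold of 1.98, both with summits inside the gene. The summits were 1672 bp apart and the peaks overlapped by 13 bp. FBA1, FBA2 and PRK were among the 6 genes with no peak at either time. Over all 5 lists, 7 of 40 genes had a T30 peak and 5 had a T0 peak, beside 5.41% and 3.76% of all genes. The median fold of these genes was 6.27 at T30 and 2.03 at T0, against 2.87 and 2.03 over all genes with a peak.

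**Figure D4:**
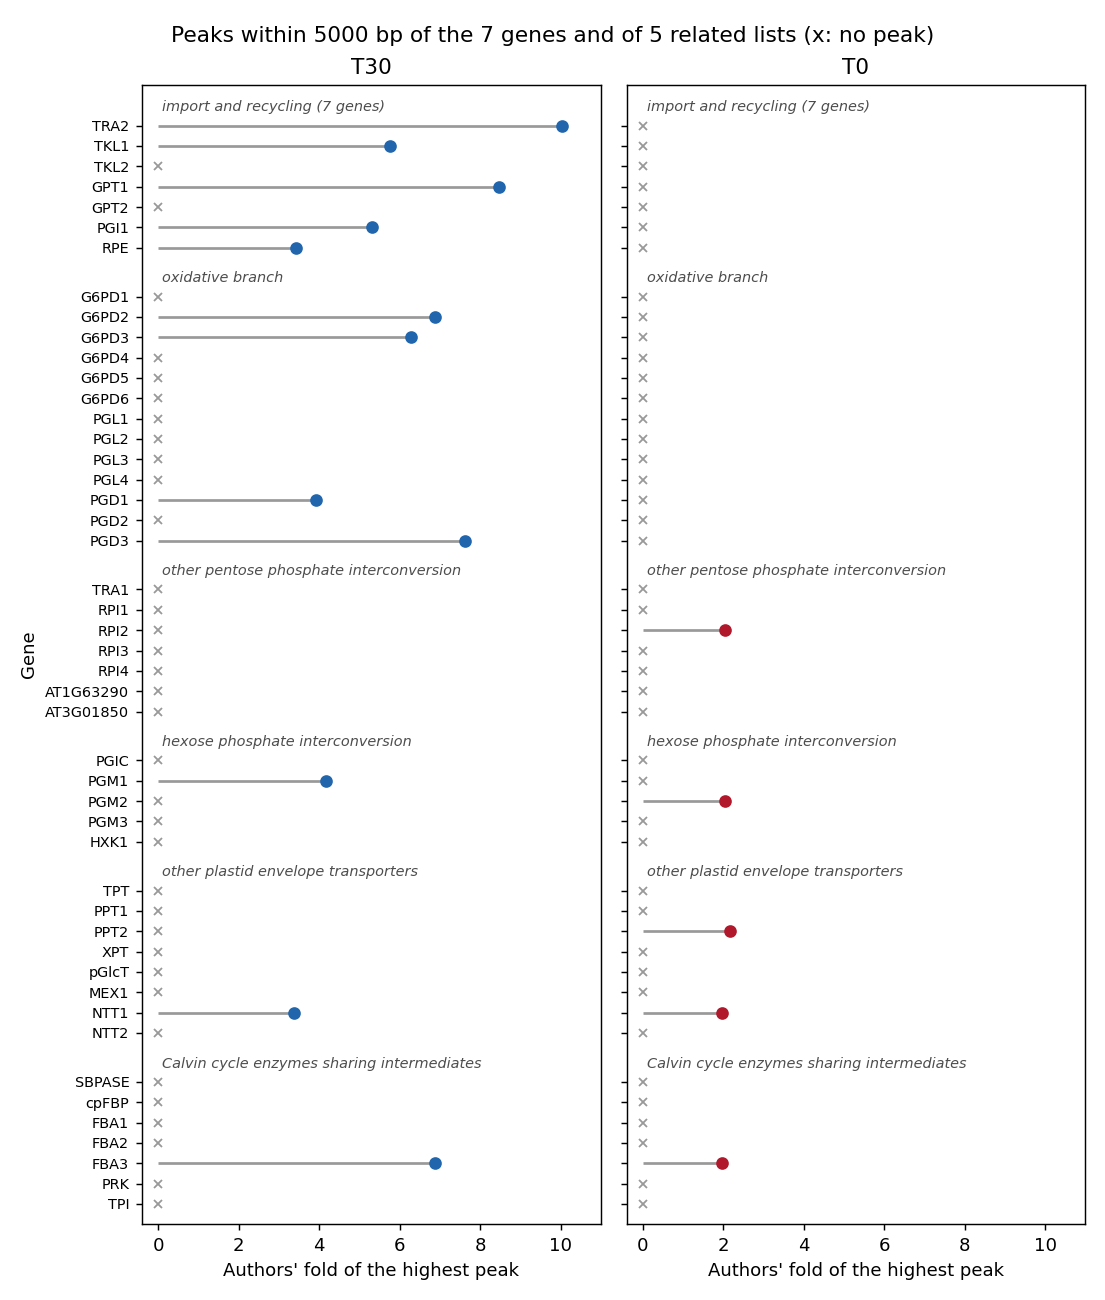
Rows are the 7 import and recycling genes and the 40 genes of 5 related lists, with the authors' fold of the highest peak within 5000 bp on the x axis, for T30 on the left and T0 on the right. A small x at 0 marks a gene with no listed peak, and names that the gene table does not give are those entered in the lists. The 12 genes with a T30 peak have folds of 3.39 to 10.0, and the 5 with a T0 peak have folds of 1.97 to 2.16.

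Ordered by reaction, the route from import to the return of glucose 6-phosphate comprises 9 steps with 28 genes, a grouping made after the values were seen. At T30, 9 of the 28 genes had a peak, beside 5.41% of all genes. They fell on 7 of the 9 steps, each of which has several genes, and the exceptions were 6-phosphogluconolactonase and ribose-5-phosphate isomerase. At T0, 1 of the 28 genes had a peak, close to the 3.76% of all genes. It was RPI2, at the step of ribose-5-phosphate isomerase. No step had T30 peaks at all of its genes. Import, transketolase, transaldolase and phosphoglucose isomerase each had a peak at 1 of 2 genes, and the epimerase at 1 of 3. The epimerase step rested on RPE, and 6 steps had a T30 peak at 1000 bp, at 2000 bp and with the nearest gene. For the isomerase the gene with a peak was the plastid one, PGI1.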

How the data were processed

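The authors deposited 4 peak lists, an IP list and an input list for each time. MACS2 2.1.1, Bowtie2 2.3.4.1, SAMtools 1.7 and the genome build TAIR10 are named in the submitters' processing notes; settings are not given in the sources used here. The names of the IP lists say that they hold pooled libraries after a reproducibility step (IDR). The deposited values per peak are a fold (a ratio), −log10 q, a score (10 times −log10 q, rounded down), and a summit offset. Read depth is unknown, so no counting interval is given. The labels do not say whether IP libraries came from separate cultures.

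Positions are 1-based. Genes came from a RefSeq table of TAIR10.1, which has no strand, exons or sequence. All 47 loci matched. Using the table assumes equal nuclear coordinates in TAIR10 and TAIR10.1, so distances are given as classes. Peaks were shared when they overlapped by 1 bp. No test was made, because each list is a single pooled value. Assignment was checked on simulated lists. Planned motif and protein comparisons were not analysed here. The 7 genes and the 5 lists were chosen with earlier results of these data known. The genes named were the 7, every list gene with a peak, up to 3 list genes without one, and neighbours of the summits; further names were added after values were seen. Computations used Python 3.11.15 with pandas 2.3.3 and NumPy 2.4.6, and figures matplotlib 3.10.9.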

Additional observations from a re-analysis of the deposited data

How the results depend on the processing

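The count of the 7 genes with a T30 peak was 4 or 5 under 7 alternatives (a distance of 1000 or 2000 bp, the nearest gene, any base of the peak, a −log10 q cut-off of 20.4 for both lists, folds at or above the list median, and overlap of 50% of the shorter peak). Of these, only counting any base of the peak could have raised the T0 count of 0, and it did not. Distances of 10000 and 20000 bp, added after the data were seen, also left 5 genes at T30 and 0 at T0, beside 2580 and 4635 genes at T30 and 1824 and 3324 at T0 over all genes. TRA2, TKL1, GPT1 and PGI1 kept their peaks under all 7, in which 6 or 7 steps had a T30 peak. Only the distances of 1000 and 2000 bp, the nearest gene and the median fold could have lowered the T30 count. The cut-off of 20.4 is the T30 minimum, any base and the wider distances can only add genes, and the overlap does not enter the assignment. The lowest fold of the 5 peaks, 3.42, was already above the T30 median of 2.75. Beside 468 to 1555 of all genes, the 40 related genes had 5 to 7 genes with a T30 peak under the 7 alternatives. At 20000 bp 10 of them had one, 10 of their peaks were found at T30 alone, and 8 steps had a T30 peak and 2 a T0 peak. Their T0 count of 5 was less stable: it was 2 with 1000 bp and 2 with the nearest gene, 1 with the shared q cut-off and 1 at or above the median fold, where PPT2 was left. The T0 count over all genes fell too, from 1031 to 370, 346, 318 and 416 in the same order. The number of steps with a T0 peak was 0 with the shared q cut-off and 0 at or above the median fold. The distances and cut-offs give these lower counts by construction. With the nearest gene, NTT1 and the plastid phosphoglucomutase gene lost their T30 peaks. With 50% overlap, the shared q cut-off or the median fold, the FBA3 peak counted as found at T30 alone. The motif alternative was not run. No paired analysis was possible because each list pools its 2 libraries, and for the same reason no library could be left out.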

Other observations

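The TRA2 summit lay 145875 bp from the G6PD2 summit on chromosome 5, with 1 other T30 peak between them. No other pair of T30 summits assigned to the 47 genes lay within 500 kb of each other on the same chromosome.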
